A study of Homo sapiens with 6 samples.

Results

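The hypoxia-inducible factor (HIF) pathway was described through 10 genes: the HIF alpha subunits HIF1A and EPAS1, the HIF prolyl hydroxylases EGLN1 and EGLN3, the secreted vascular and metabolic factors VEGFA, ADM and ANGPTL4, and the intracellular or membrane targets NDRG1, CA9 and BNIP3. A gene entered when a probe set carried its symbol and no other, and the brightest such probe set by the mean of the 6 arrays stood for it. This gave 9 of the 10 genes, among 18417 genes in all, and each of the 9 had 1 probe set. CA9, a carbonic anhydrase of the cell surface, was not analysed here.

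The cells were MDA-MB-231, an established line from a human triple-negative breast carcinoma, grown in serum-containing medium. The compound YW3-56 was given at 10 µM for 8 h in 3 biological replicates, and the vehicle DMSO, for which the labels state no separate time, in 3 others. YW3-56 is known as an inhibitor of peptidylarginine deiminases, enzymes that turn arginine in proteins into citrulline. All arrays are of this 1 line, the labels name no oxygen setting, and no hypoxic culture was analysed here, so the comparison asks how these genes differ after the compound.

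In cells with enough oxygen, EGLN enzymes hydroxylate HIF alpha subunits, and the VHL ubiquitin ligase then marks them for degradation. When oxygen is short the subunits persist, pair with ARNT and bind a short core sequence, ACGTG or GCGTG, near genes for blood vessel growth, glucose use and survival. HIF alpha is thus controlled mainly as a protein, which arrays of messenger RNA do not measure.

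After YW3-56, EPAS1, NDRG1 and VEGFA rose 2.72-fold, 2.63-fold and 2.54-fold (n = 3 arrays per group). HIF1A differed by -0.65 ± 0.22 (SE) on the log2 scale and did not pass the test. ADM, ANGPTL4, BNIP3, EGLN1 and EGLN3 did not pass either. A gene was called changed at a limma adjusted p under 0.05 over all genes. By that rule 3 of the 9 genes were higher and 0 were lower, while 9.84% of all genes were called higher and 11.5% lower, or 21.4% in either direction. The balance over all genes depended on the scaling, with 1812 higher and 2121 lower as deposited, but 1691 and 1432 with centred arrays and 2114 and 2025 after a second quantile normalization. Their median log2 fold change was 0.14, beside -0.05 over all genes tested. Over all genes 3933 were called, and 2364 without YW3-56 replicate 3.

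Arrays of a group correlated over genes at 0.990 to 0.997, and arrays of different groups at 0.980 to 0.985. On the second principal component the YW3-56 arrays scored 9.77, -9.72 and -2.06 and the DMSO arrays 22.2, -4.77 and -15.4, so that DMSO replicates 1 and 3 lay farthest out, on opposite sides. Deviations from the group means correlated at 0.54, 0.37 and 0.10 between same-numbered arrays, as described with the processing. All 5 mesenchymal markers of this line (VIM, CD44, AXL, CAV1 and MSN) lay between the 99.48 and 99.69 percentile of gene levels on the arrays. Luminal markers lay between the 8.88 and 65.5 percentile, with CDH1 and PGR among the dim ones. Of 14 measured endothelial, fibroblast and leukocyte markers, 0 were called, and they lay between the 0.61 and 62.3 percentile. With treatment CAV1 and GATA3 were lower and FOXA1 was higher, and their part in the results below was not tested.

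The promoter windows of the HIF alpha genes are shown because their differences had opposite signs, though that of HIF1A did not pass the test. The window of BNIP3 is shown because it carries the most core matches of the windows searched. Each window runs from 250 bases before to 50 bases after the start, from RefSeq on GRCh38.p14, 5′ to 3′ on the gene's strand. Capitals mark ACGTG or GCGTG on either strand, so that CACGT and CACGC are the same cores read from the other strand. EPAS1 is at chr2:46297157-46297456 on the plus strand, HIF1A at chr14:61695263-61695562 on the plus strand, and BNIP3 at chr10:131981874-131982173 on the minus strand.
EPAS1: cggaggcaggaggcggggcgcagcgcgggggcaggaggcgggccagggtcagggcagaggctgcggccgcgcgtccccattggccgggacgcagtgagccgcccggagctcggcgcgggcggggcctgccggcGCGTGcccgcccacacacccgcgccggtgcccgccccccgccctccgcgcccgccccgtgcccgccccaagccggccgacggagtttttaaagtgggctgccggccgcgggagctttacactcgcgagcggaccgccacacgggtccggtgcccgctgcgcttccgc
HIF1A: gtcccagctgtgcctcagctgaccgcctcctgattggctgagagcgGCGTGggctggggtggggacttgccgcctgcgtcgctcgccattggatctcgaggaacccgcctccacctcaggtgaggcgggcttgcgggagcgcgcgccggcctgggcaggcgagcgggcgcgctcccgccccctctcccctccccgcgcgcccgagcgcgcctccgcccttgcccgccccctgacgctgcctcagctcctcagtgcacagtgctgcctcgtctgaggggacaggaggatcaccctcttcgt
BNIP3: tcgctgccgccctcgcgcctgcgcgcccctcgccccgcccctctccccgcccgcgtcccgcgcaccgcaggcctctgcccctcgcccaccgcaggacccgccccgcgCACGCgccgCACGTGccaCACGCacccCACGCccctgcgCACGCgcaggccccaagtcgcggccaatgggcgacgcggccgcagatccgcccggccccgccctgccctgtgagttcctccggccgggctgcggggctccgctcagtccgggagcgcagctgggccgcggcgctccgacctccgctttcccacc

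EPAS1 held 1 GCGTG, whose first base is at -117 from the start, and HIF1A held 1 at -204, while the second RefSeq window of HIF1A held none. BNIP3 held 6 matches at 5 places, the outermost at -143 and -104, since the palindrome CACGTG counts on both strands. Single matches were found for EGLN1 at -13, ADM at -101, ANGPTL4 at -234 and CA9 at -18, and none in the window of EGLN3. In all, 7 of the 9 windows, which belong to 8 genes, held a match, beside 48.4% of 35116 RefSeq promoter windows of the same length. No window was used here for VEGFA and NDRG1. A match describes letters in these windows and is not a measured binding site.

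HIF1A and EPAS1 encode related alpha subunits, HIF-1 alpha and HIF-2 alpha. EPAS1 had log2 levels of 10.75, 10.56 and 10.59 in the YW3-56 arrays, replicates 1 to 3, against 9.58, 8.96 and 9.03 in the DMSO arrays. The groups did not overlap, and DMSO replicate 1 was the highest of the vehicle arrays. The difference was 1.44 ± 0.16 (SE) with an adjusted p of 0.000658, rank 58 among the rises of all genes. In bulk RNA, a change in the number of cells that express a gene and a change in RNA per cell cannot be told apart. EPAS1 was called under each of 15 alternatives, at differences from 1.33 to 1.64.

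HIF1A had log2 levels of 11.58, 10.90 and 10.72 with YW3-56 and of 11.99, 11.62 and 11.53 with DMSO. Replicate 1 was the highest array in both groups, and its YW3-56 value lay within 0.05 of the lowest DMSO value, so the groups overlapped narrowly. HIF1A averaged 11.07 ± 0.46 in YW3-56 and 11.71 ± 0.24 in DMSO (SD, n = 3 arrays each). The difference of -0.65 had a 95% interval from -1.15 to -0.14 and an adjusted p of 0.0732. Between same-numbered arrays it was -0.41, -0.72 and -0.81, lower in 3 of 3, though the labels do not state that these arrays are pairs. With replicate number as a block HIF1A was called lower (adjusted p = 0.00482). It was also called with array weights (0.0123) and with a trended prior (0.0387), within a range of 0.00482 to 0.26 over 15 alternatives. Without YW3-56 replicate 1 it was called too (-0.90, adjusted p = 0.00908). That fit kept DMSO replicate 1, the highest vehicle array, and its -0.90 lies beyond each same-numbered difference. Without DMSO replicate 1 HIF1A differed by -0.51 and was not called (adjusted p = 0.106).

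The difference between the paralogs was taken within each array, since levels of different probe sets are not comparable. HIF1A minus EPAS1 was 0.83, 0.34 and 0.13 in YW3-56 arrays and 2.41, 2.66 and 2.49 in DMSO arrays. All treated values were below all vehicle values, and the shift was -2.09 on the log2 scale. An exact two-sided permutation test gave p = 0.1, the smallest value that 3 against 3 arrays allow. Leaving out 1 array at a time gave shifts between -2.29 and -1.94.

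**Figure D1:**
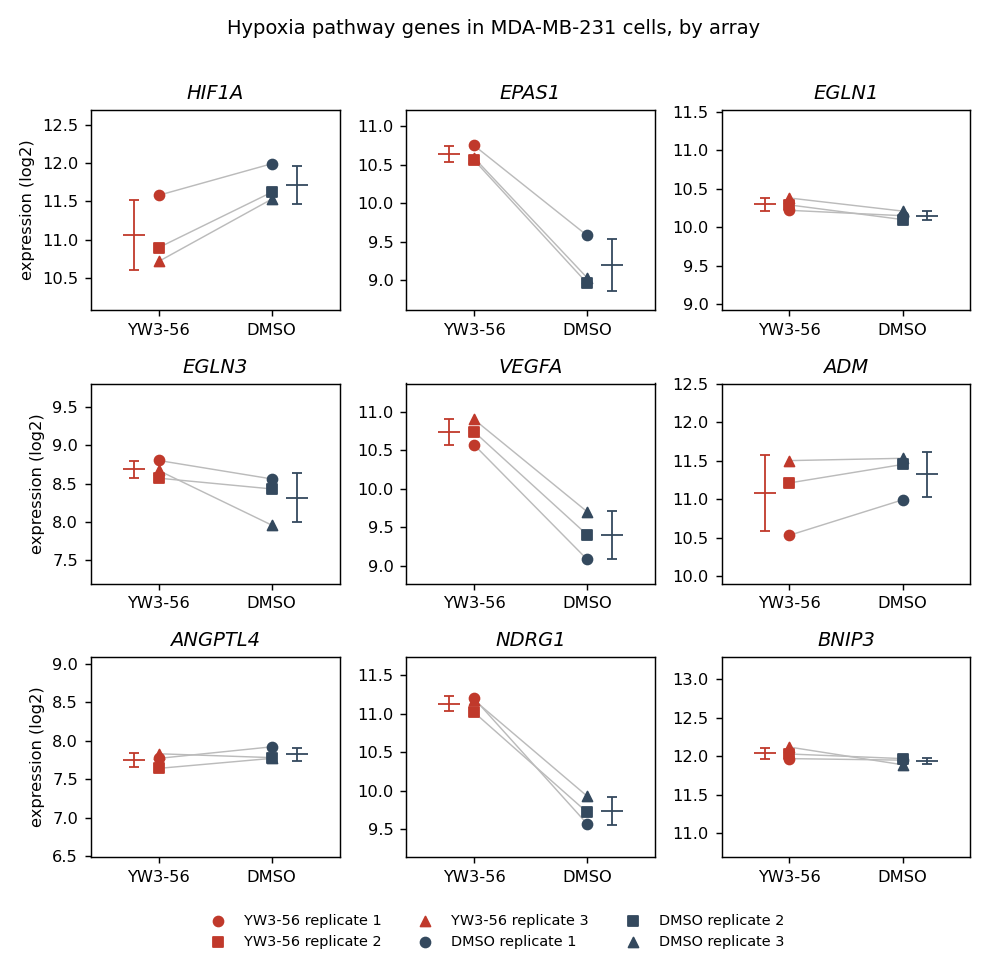
Log2 expression of the 9 measured genes in each array, with YW3-56 (red) left of DMSO (dark blue). Symbols mark the replicate number, grey lines join same-numbered arrays, bars beside the points show mean and SD (n = 3), and every panel spans 2.6 log2 units. EPAS1, VEGFA and NDRG1 lie well apart between groups, from 9.93 in the highest DMSO array of NDRG1 to 11.02 in its lowest YW3-56 array, while HIF1A and ADM spread by replicate within both groups.

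EGLN1 and EGLN3 encode the hydroxylases PHD2 and PHD3, which use oxygen to mark HIF alpha. EGLN1, the main oxygen sensor of the family, had log2 levels of 10.22, 10.29 and 10.38 in YW3-56 and of 10.15, 10.10 and 10.21 in DMSO. The treated arrays were all above the vehicle arrays, by as little as 0.01, and the difference of 0.14 ± 0.08 (SE) did not pass (adjusted p = 0.251, 95% interval -0.03 to 0.32). It was called with array weights (0.20, adjusted p = 0.0439).

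EGLN3, itself known as a HIF target, had log2 levels of 8.80, 8.57 and 8.67 in YW3-56 and of 8.56, 8.43 and 7.96 in DMSO. Here too every treated array was above every vehicle array, by as little as 0.01, and DMSO replicate 3 was well below the others. The difference of 0.37 ± 0.15 did not pass, with an adjusted p of 0.137 and an interval from 0.02 to 0.72. Without DMSO replicate 1 it was called (0.49, adjusted p = 0.0301), and without DMSO replicate 3 it was 0.19. The change of EGLN3 minus that of EGLN1 was 0.22 (exact permutation p = 0.6), so a difference between the hydroxylases was not detected. It was 0.35 without DMSO replicate 1, 0.12 without YW3-56 replicate 1 and 0.01 without DMSO replicate 3.

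Among the secreted factors, VEGFA encodes vascular endothelial growth factor A, the main signal for growth of blood vessels. VEGFA had log2 levels of 10.57, 10.74 and 10.90 in YW3-56 arrays and of 9.08, 9.40 and 9.70 in DMSO arrays. Every treated array was above every vehicle array by at least 0.87. The difference was 1.34 ± 0.16 (SE), with an adjusted p of 0.000895, rank 68 among all rises. It was 1.49, 1.34 and 1.20 between same-numbered arrays, and it was called under each of 15 alternatives.

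ADM encodes adrenomedullin, a vasodilating peptide that HIF is known to induce. It had log2 levels of 10.53, 11.21 and 11.50 in YW3-56 and of 10.99, 11.45 and 11.53 in DMSO. Replicate 1 was the lowest array in both groups, and the groups overlapped. The difference was -0.24 ± 0.24 (adjusted p = 0.575), with an interval from -0.80 to 0.31. That interval lies below the VEGFA interval of 0.98 to 1.71, though the difference between these genes was not tested. Between same-numbered arrays ADM differed by -0.46, -0.24 and -0.03, lower in 3 of 3. It was not called with replicate number as a block (adjusted p = 0.115). Without YW3-56 replicate 1 the difference was 0.03, with the low DMSO replicate 1 kept.

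ANGPTL4, a secreted inhibitor of lipoprotein lipase with effects on vessels, had log2 levels of 7.77, 7.64 and 7.83 in YW3-56 and of 7.92, 7.77 and 7.78 in DMSO. The groups overlapped, and the difference was -0.08 ± 0.08 (adjusted p = 0.62, interval -0.27 to 0.12). It was -0.02 without YW3-56 replicate 2 and -0.03 without DMSO replicate 1, and was not called under any of 15 alternatives. The gene lay at the 42.7 percentile of gene levels on these arrays.

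NDRG1, a cytoplasmic protein that hypoxia and other stresses are known to induce, had log2 levels of 11.20, 11.02 and 11.18 in YW3-56 and of 9.57, 9.72 and 9.93 in DMSO. The groups were separated by 1.09 or more. Its difference was 1.39 ± 0.11 (SE) with an adjusted p of 0.00017, rank 64 among all rises, and it was called under each of 15 alternatives, at 1.31 to 1.49.

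BNIP3 encodes a mitochondrial protein of the BCL2 family that promotes mitophagy. It had log2 levels of 11.97, 12.03 and 12.12 in YW3-56 and of 11.95, 11.97 and 11.89 in DMSO. Treated and vehicle arrays just failed to overlap, and the difference was 0.10 ± 0.07 (adjusted p = 0.428), with an interval from -0.07 to 0.27. The gene lay at the 96.9 percentile of levels. Related sequences of BNIP3 elsewhere in the genome could share probes with it.

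For 6 of the 9 genes (66.7%) the groups did not overlap, with YW3-56 above DMSO in each. Over all genes 36.9% had no overlap in either direction, and 2862 of 18417 had YW3-56 above DMSO. EGLN1, EGLN3 and BNIP3 were separated by only 0.01, 0.01 and, after rounding, 0 on the log2 scale, and did not pass the test.

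**Figure D2:**
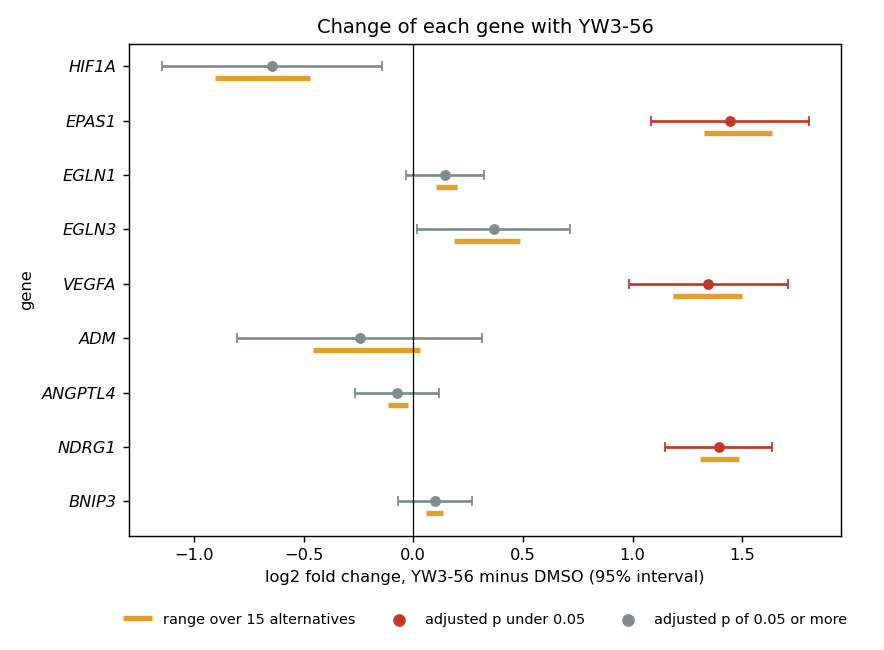
Log2 fold change of each gene, YW3-56 minus DMSO (points), with its 95% interval (thin bars) and the range of the value over 15 alternatives (thick orange bars). EPAS1, NDRG1 and VEGFA (red) lie between 1.34 and 1.44 and stay above 1.18 in every alternative, whereas the other 6 genes (grey) lie between -0.65 and 0.37.

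The genes whose levels followed HIF1A and VEGFA most closely over the 6 arrays were named by Pearson's r, as a description. For VEGFA they were DDIT4, an inhibitor of mTORC1 known to be induced by hypoxia and by other stresses (r = 0.998), NIPBL, a cohesin loader (r = 0.997), and RDH11, a retinol dehydrogenase (r = 0.997). All 3 were called higher, by 2.17, 0.42 and 0.37 on the log2 scale. For HIF1A they were HK1, a hexokinase (r = 0.997), EMP3 (r = 0.996) and SLC44A2 (r = 0.995), with differences of -0.14, -0.23 and -0.31, and as with HIF1A itself none of these 3 was called. With 6 arrays in 2 groups, such values rest on the group difference and on the shared replicate pattern.

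The remaining HIF machinery moved in both directions. Of 15 measured genes among 16 listed, 3 rose and 3 fell, and the other 9 were not called. The median difference was 0.02. Of the list 40% were called, beside 21.4% of all genes, and 53.3% had groups that did not overlap, beside 36.9% of all genes. With dim genes left out, 7 of the list were called, beside 4198 of 14733 genes in all. The coactivators that HIF recruits rose, EP300 by 0.88 ± 0.08 and CREBBP by 0.67 ± 0.07 (adjusted p = 4e-04 and 0.000658). EP300 had log2 levels of 10.38, 10.37 and 10.48 in YW3-56 and of 9.66, 9.51 and 9.43 in DMSO, and CREBBP had 11.52, 11.51 and 11.53 in YW3-56 and 10.91, 10.88 and 10.76 in DMSO. Both were thus higher in 3 of 3 treated arrays. CITED2, which competes with HIF alpha for these coactivators, fell by 0.37 ± 0.07 (adjusted p = 0.00955).

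HIF1AN, the asparagine hydroxylase that blocks coactivator binding, rose by 0.44 ± 0.12 (adjusted p = 0.0381). That call was lost when any single array other than DMSO replicate 1 was left out (adjusted p from 0.0674 to 0.125), with centred arrays (0.0541) and in the per-gene test without shared variance (0.153). ARNT2, a partner of HIF alpha, fell by 0.50 ± 0.08, whereas ARNT, the usual partner, differed by -0.11 and did not pass (adjusted p = 0.558). Of 5 genes of the VHL ligase, the scaffold CUL2 fell by 0.40 ± 0.07 and the other 4 did not pass, VHL among them at 0.07.

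Other genes known as hypoxia targets split as well. Of 40 measured genes among 43 listed, 13 rose, 5 fell and 22 were not called. The median was 0.08, 45% were called, beside 21.4% of all genes, and the groups did not overlap for 62.5%, beside 36.9%. Without YW3-56 replicate 3, 12 genes were called in place of 18. With dim genes left out 19 were called, beside 4198 of 14733 genes in all. The list was drawn up with earlier results of these data known, and it includes genes that other stress pathways also induce. The largest changes were those of HMOX1, haem oxygenase 1 (3.23 ± 0.11), DDIT4 (2.17 ± 0.24), P4HA2, a collagen prolyl hydroxylase (2.004 ± 0.13), TFRC, the transferrin receptor (-1.71 ± 0.15), and KDM3A, a histone demethylase (1.59 ± 0.08). P4HA2 had log2 levels of 11.20, 10.89 and 10.94 in YW3-56 and of 9.15, 9.13 and 8.74 in DMSO. KDM3A had 10.10, 10.23 and 10.23 in YW3-56 and 8.67, 8.54 and 8.59 in DMSO. Both were higher in 3 of 3 treated arrays, by more than the spread within either group.

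A set of 5 collagen-modifying enzymes within that list was singled out after the values were seen, so its count supports nothing. All 5 rose: P4HA2 as above, LOX, the lysyl oxidase, by 0.98 ± 0.12, P4HA1 by 0.86 ± 0.08, and the lysyl hydroxylases PLOD2 by 0.52 ± 0.11 and PLOD1 by 0.42 ± 0.08. PLOD2 lost its call without YW3-56 replicate 3 (adjusted p = 0.0613) and in the per-gene test (0.0788). VLDLR, a lipoprotein receptor, rose by 1.02 ± 0.17, a call the per-gene test lost (0.0594).

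Another 12 genes, for glucose uptake and glycolysis, were grouped in the same way. The transporter SLC2A3 (0.75 ± 0.10) and the regulator PFKFB3 (0.43 ± 0.13) rose, the hexokinase HK2 (-1.09 ± 0.08) and the transporter SLC2A1 (-0.38 ± 0.07) fell, and the other 8 did not pass, at -0.23 to 0.26, with LDHA at -0.08. PFKFB3 lost its call when any single array other than DMSO replicate 1 was left out (adjusted p from 0.0818 to 0.163), with centred arrays (0.055) and in the per-gene test (0.165). AK4, a mitochondrial adenylate kinase (-0.69 ± 0.15), and HILPDA, a lipid droplet protein (-0.39 ± 0.10), completed the 5 falls. AK4 was lost without YW3-56 replicate 2 (0.0504) or 3 (0.0612) and in the per-gene test (0.104), and HILPDA without the same arrays (0.0747 and 0.0976), with centred arrays (0.0703) and in the per-gene test (0.0849).

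Among other angiogenic factors and receptors, called falls outnumbered called rises. Over all genes as deposited they did so too (11.5% lower, 9.84% higher), a balance that turned with centred arrays. Of 30 measured genes among 32 listed, 1 rose, 7 fell and 22 were not called. The median was -0.09, 26.7% were called, beside 21.4% of all genes, and the groups did not overlap for 36.7%, about the 36.9% of all genes. With centred arrays 6 genes of the list were called. VEGFC, a lymphatic growth factor of the VEGF family, had log2 levels of 9.21, 8.91 and 8.67 in YW3-56 and of 9.85, 9.59 and 9.57 in DMSO, and it fell by 0.74 ± 0.14 (adjusted p = 0.0073). NRP1, a VEGF co-receptor, had 9.62, 9.25 and 9.43 in YW3-56 and 10.43, 10.14 and 10.09 in DMSO, and it fell by 0.79 ± 0.12 (adjusted p = 0.00299). VEGFC and NRP1 were each lower in 3 of 3 treated arrays.

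HBEGF, a ligand of the EGF receptor, fell by 0.99 ± 0.13, and the chemokine CXCL8 fell by 0.465 ± 0.11. PDGFA, a platelet-derived growth factor chain, was the gene that rose (0.41 ± 0.07). Without YW3-56 replicate 3, 5 genes of the list were called in place of 8, CXCL8 no longer among them (adjusted p = 0.0746), and the per-gene test called 4, without VEGFC (0.0734) or CXCL8 (0.0838). The related co-receptor NRP2 differed by -0.34 ± 0.07, a call lost without YW3-56 replicate 2 (0.0542) and with centred arrays (0.0517). KDR, the main VEGFA receptor of endothelium, lay at the 30.8 percentile and differed by 0.18 without passing. Of 4 genes of the adrenomedullin receptor, 0 were called, and its core gene CALCRL lay at the 4.05 percentile. CALCRL was called with replicate number as a block (0.39, adjusted p = 0.0299) and without DMSO replicate 1 (0.48, adjusted p = 0.0329).

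Among paralogs of the 10 genes, 16 of 22 were measured, and 2 rose, 1 fell and 13 were not called, with a median of -0.01. The lists overlap: HIF3A, VEGFB, VEGFC, PGF, CA12 and BNIP3L also stand in the lists above. The calls of VEGFC and BNIP3L were thus counted there already. The share called was 18.8%, close to that of all genes, and the groups did not overlap for 56.2%, beside 36.9% of all genes. BNIP3L, a mitophagy receptor close to BNIP3, rose by 0.33 ± 0.07 (adjusted p = 0.0137), NDRG4 rose by 0.34 ± 0.08 (0.0177), and VEGFC was the fall. BNIP3L was lost without YW3-56 replicate 2 (0.0538) or 3 (0.0502), and NDRG4 without YW3-56 replicate 1 (0.0649) or 3 (0.0695). With replicate number as a block 6 paralogs were called, adding the carbonic anhydrases CA2 (0.33, adjusted p = 0.019) and CA12 (-0.26, adjusted p = 0.0267) and VEGFB (-0.24, adjusted p = 0.0475). Without YW3-56 replicate 3, 1 was called. ADM2, a peptide related to ADM, differed by 0.26 ± 0.18 without passing.

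**Figure D3:**
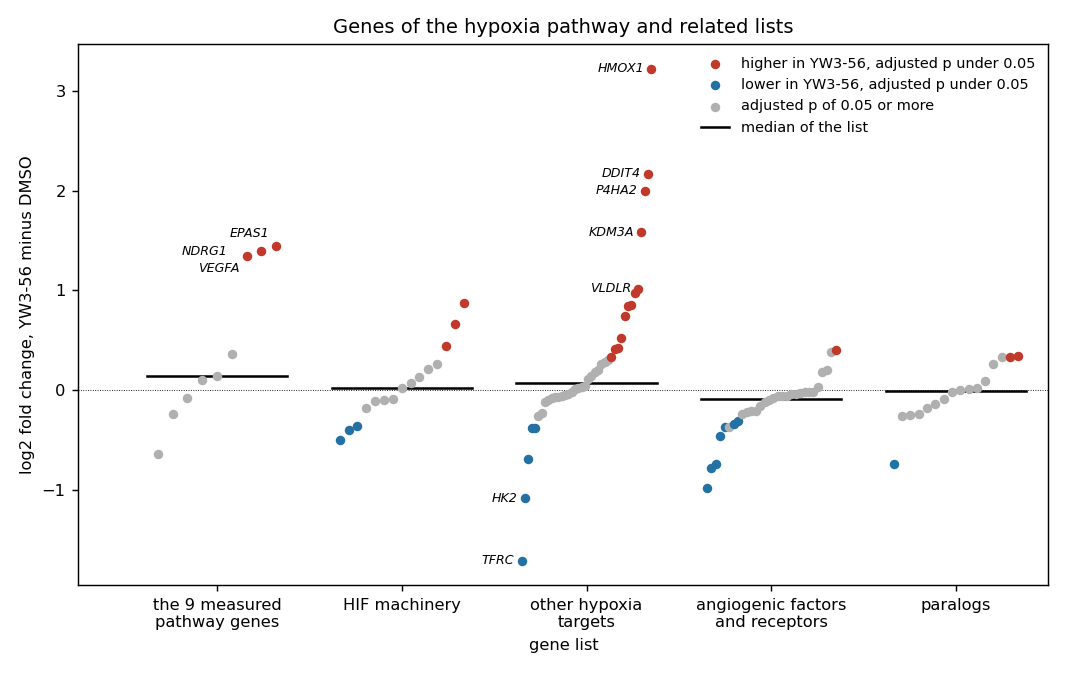
Log2 fold changes, YW3-56 minus DMSO, of each measured gene of 5 lists, sorted within a list, with called rises in red, called falls in blue, genes that did not pass in grey and the list's median as a black line. Called genes with a change beyond 1 are labelled, and the medians lie between -0.09 and 0.14. The 4 other lists hold called rises and called falls. The 9 genes hold 3 called rises and 0 called falls, beside 9.84% of all genes called higher and 11.5% lower. HIF1A, grey here, was called lower in 4 of 15 alternatives. Some paralogs also stand in another list and are drawn in both.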

How the data were processed

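Expression was deposited as log2 values of 33297 probe sets on 6 arrays, which the authors made with RMA and affy, per the submitters' processing notes, which name no version. RMA equalises intensity distributions between arrays, and a uniform change of all RNA would be removed by it. The deposited values were not fully level, with array medians over all probe sets from 7.55 to 7.74. Arrays carry no read depth, and their number limits the precision.

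Probe sets with a single symbol (19460) were named from the platform annotation, of which 19429 matched RefSeq (GRCh38.p14) by Entrez identifier. The brightest stood for each of 18417 genes. limma 3.58.1 in R 4.3.3 (lmFit, eBayes, group as the only term, no filter) compared YW3-56 with DMSO on the deposited log2 values, two-sided, with Benjamini-Hochberg adjustment over all genes. The test was checked on simulated data. Levels are log2 values, differences are YW3-56 minus DMSO, and errors are SE unless marked SD. Levels of different genes were set side by side only as percentiles of gene levels, a rough guide across probe sets.

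Replicate numbers of the labels were used as a block in an alternative. Deviations from group means correlated over genes at 0.54, 0.37 and 0.10 (0.102 before rounding) between same-numbered arrays. Each exceeds 0.1, the last one barely, so the numbers were used as pairs in that alternative. YW3-56 replicate 2, however, matched DMSO replicate 3 better (0.416). The fit reported took no account of pairs. The labels call the replicates biological and say no more of their source.

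The 10 genes, the lists and the tests were chosen with earlier results of these data known. Named were all measured genes of the 10, up to 5 of each list (called ones first, then by size of change), and 3 genes most alike to HIF1A and to VEGFA. Chosen after their values were seen were ARNT, VHL, CITED2, P4HA1, PLOD1, PLOD2, LOX, HK2, SLC2A1, SLC2A3, PFKFB3, LDHA, NRP2, VLDLR, AK4, HILPDA, KDR, CALCRL, VEGFB and CA12. A planned search for hydroxylation sites in the HIF alpha proteins was not run, for want of a protein table. Other alternatives were averaged probe sets per gene, each probe set tested as such, a second quantile normalization, centred arrays, a filter at the 20th percentile of gene means, a trended and robust prior, array weights, a per-gene test without shared variance, and each array left out.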

Additional observations from a re-analysis of the deposited data

How the results depend on the processing

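The rises of EPAS1, VEGFA and NDRG1 were called under all 15 alternatives, with adjusted p of at most 0.0284. Of 135 values of the 9 genes under alternatives, 128 kept direction and side of the threshold, 6 passed it anew and 1 turned, ADM at 0.0306 without YW3-56 replicate 1, within -0.46 to 0.0306 over the arrays left out. Genes of the 10 called lower numbered 1 (HIF1A) with a trended and robust prior, with array weights and with the replicate block, and 0 to 1 when 1 array was left out, against 0 in the fit reported. Array weights called 5 of the 9 genes, 5 paralogs and 6079 genes in all, weighting DMSO replicate 2 at 2.94 and DMSO replicate 1 at 0.33; they were estimated gene by gene, an option chosen after seeing the data because the default estimate did not converge. The per-gene test called 4 angiogenic genes, and the replicate block called 6 paralogs. Leaving out 1 array gave 2364 to 4689 calls over all genes, 5 to 9 among angiogenic genes and 1 to 4 among paralogs. The block changed no call of the named genes beyond those of HIF1A, CALCRL, CA2, CA12, VEGFB, EMP3 (adjusted p = 0.0458) and SLC44A2 (0.0242). The probe set choice had no bearing on the 9 genes, since each had 1. The filter, the trended prior, the per-gene test and the replicate block left each gene's difference as it was. They could change its call but not its direction. With 3 arrays per group, a difference near 0.3 on the log2 scale passed for some genes and not for others, depending on their spread.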
